A study of Mus musculus with 9 samples.

Results

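Imprinted genes are genes that mammals express mainly from 1 of the 2 parental copies. The list analysed here holds 40 mouse imprinted genes, chosen by name, of which 35 were read by an array feature that the platform annotation assigns to a single gene symbol, out of 22180 genes tested in all. Where a gene had several such features, the brightest of them on average was taken. Of the 35 genes, 12 of 14 listed were classed as maternally expressed and 21 of 24 as paternally expressed. The other 2, Grb10 and Gnas, use either allele depending on tissue or transcript. A class does not state that the gene is imprinted in the spinal cord at e11.5. For some genes, such as Ube3a, it holds only in certain cells. The other 5 genes, H19, Mirg, Rtl1, Snrpn and Zrsr1, had no feature with a single symbol and were not analysed here.

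The parental mark of an imprinted gene is DNA methylation laid down in the egg or the sperm, and most imprinted genes lie in domains in which 1 methylated control region sets the expression of several neighbours, often through a long noncoding RNA. Paternally expressed genes such as Igf2 tend to promote the growth of the embryo and placenta, and maternally expressed genes such as Cdkn1c and Igf2r tend to restrain it. In the embryonic nervous system many imprinted genes, among them Peg3, Ndn, Nnat and Cdkn1c, are expressed in progenitors that leave the cell cycle or in young neurons.

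Spinal cords were dissected from mouse embryos at e11.5, and their total RNA was hybridised to Affymetrix MoGene 2.0 ST arrays, 1 array per sample. Control embryos gave 5 arrays. Hnf6-/-;Oc2-/- embryos (OC mutant), which lack the Onecut transcription factors Hnf6 (Onecut1) and Oc2 (Onecut2) in every cell, gave 4. The authors report that the spinal cord of such embryos also loses the expression of the third family member, Oc3. The genotypes that make up the control group and the strain are not given in the sample labels. All values are deposited log2 signals, in which a difference of 1 is a factor of 2, and they sum the RNA of both parental alleles, so that the arrays do not show from which allele a gene was read. A piece of whole spinal cord holds many cell types, and fewer cells of a type cannot be told apart from less RNA per cell.

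Array medians lay between 5.23 and 5.31. Of the mutated genes, Onecut2 averaged 7.75 ± 0.20 over the controls (SD, n = 5) and 6.90 ± 0.34 over the mutants (SD, n = 4), with every mutant lower, whereas Onecut1 averaged 7.33 ± 0.28 and 7.21 ± 0.08 with overlapping groups, and whether their features lie in the deleted parts is unknown here. The neural marker Sox2 was at 9.64 ± 0.32 and the neuronal tubulin Tubb3 at 11.02 ± 0.16 in control spinal cords (SD, n = 5). The mean of 22 mesenchyme and cartilage markers was 8.09 on control 1, 7.07 to 7.44 on the other controls and 7.04 to 7.67 on the mutants, and the mean of 15 neuron markers was 9.53 on control 1 and 9.52 on mutant 3, against 9.75 to 10.20 on the other 7 arrays. Controls 2 and 3 had low signal for 3 Y-linked genes (means 3.52 and 3.77) and high Xist (10.35 and 10.63), while the other 7 arrays, all 4 mutants included, had Y-linked means of 8.10 to 8.32. Results that these differences could touch are given below with them.

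None of the 35 imprinted genes passed the limma test at a Benjamini-Hochberg adjusted p under 0.05, in either direction. Over all 22180 genes the test called 5 genes lower (0.0225%) and 0 higher (0%) in OC mutant spinal cords. At an unadjusted p under 0.05, 3 of the 35 (8.57%) were higher, namely Zdbf2, Plagl1 and Kcnq1ot1, beside 4.81% of all genes, and 2 (5.71%) were lower, namely Cdkn1c and Nnat, beside 4.93% of all genes. For Zdbf2 every mutant array lay above every control array, as it did for 2.15% of all genes, and for Cdkn1c all mutant values were under the lowest control value, as in 1.79% of all genes. The smallest adjusted p among the imprinted genes was 0.241. The shares are thus close to those of all genes, and with counts this small they set nothing apart about imprinted genes as a group. Of the 35 log2 fold changes 16 were above 0 and 19 below, with a median of -0.01, beside 0.00 for all genes. The median size of the change, without its sign, was 0.12 for the imprinted genes and 0.10 for all genes, and the median standard error was 0.13 and 0.12.

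**Figure D1:**
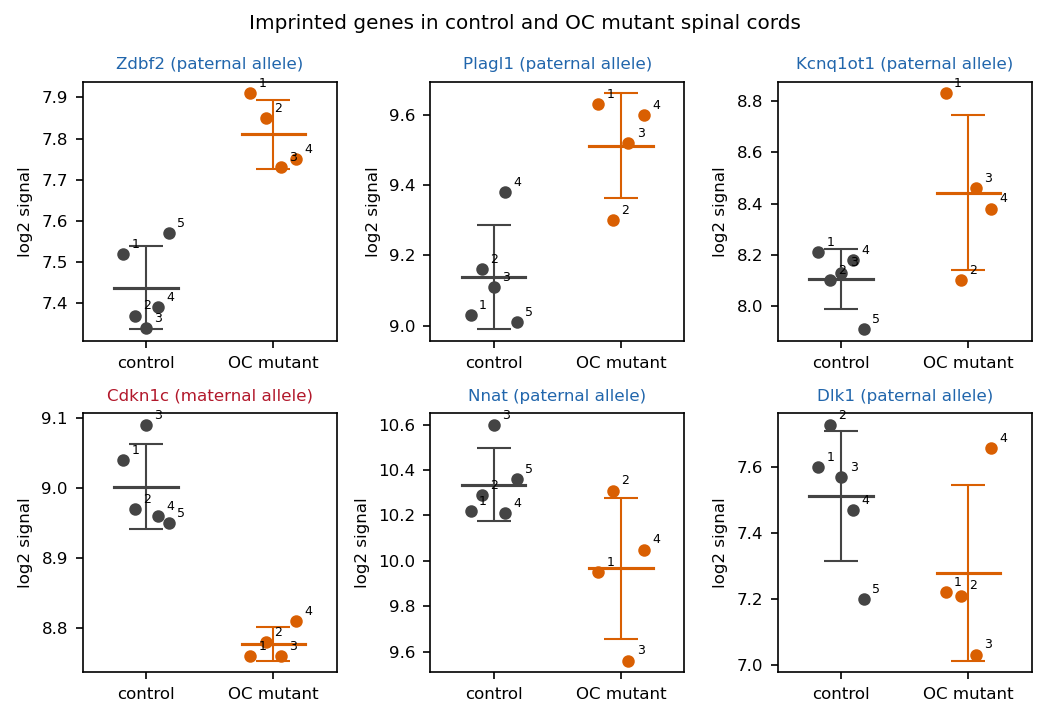
Log2 signal of 6 imprinted genes on each array (y axis), with the 5 control arrays in grey and the 4 OC mutant arrays in orange, numbered by replicate; lines are group means and bars the SD. The groups are separate for Zdbf2 and Cdkn1c and overlap for Plagl1, Kcnq1ot1, Nnat and Dlk1. The y axes do not start at 0 and differ between genes.

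Zdbf2, a paternally expressed gene that is known in the mouse for an effect on growth after birth, had log2 signals of 7.52, 7.37, 7.34, 7.39 and 7.57 on controls 1 to 5 and of 7.91, 7.85, 7.73 and 7.75 on mutants 1 to 4. All mutants were above all controls, and a gap of 0.16 separated the lowest mutant from the highest control. The log2 fold change was 0.37 (SE 0.09, 95% interval 0.18 to 0.56), a 1.29-fold higher signal, with an exact two-sided permutation p of 0.00794, the smallest that 5 arrays against 4 allow. Over all genes limma gave an unadjusted p of 0.00112, rank 100 of 22180, and an adjusted p of 0.241. The signal on the Y-low controls 2 and 3 was the lowest of all 9 arrays, and the log2 fold change was 0.31 (limma, unadjusted p = 0.00959) in a fit that held the Y-linked signal as a covariate. Zdbf2 also varied little within groups, with a pooled SD of 0.09, at percentile 8.49 of all genes.

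Plagl1 (Zac1), a zinc finger transcription factor expressed from the paternal allele, is known to slow cell division and to act on other imprinted genes. Its signal was 9.03, 9.16, 9.11, 9.38 and 9.01 on controls 1 to 5 and 9.63, 9.30, 9.52 and 9.60 on mutants 1 to 4. The groups overlapped only in that control 4 lay above mutant 2. The log2 fold change was 0.38 (SE 0.10, 95% interval 0.15 to 0.61), with an exact permutation p of 0.0238 and a limma adjusted p of 0.343. A dimmer feature of the same gene, with signals of 2.86 to 4.23 over the 9 arrays, gave 0.35 (SE 0.28), and with the mean of both features the log2 fold change was 0.36 at an unadjusted p of 0.0626.

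Cdkn1c (p57Kip2), a maternally expressed inhibitor of cyclin-dependent kinases that is known to take neural progenitors out of the cell cycle, had signals of 9.04, 8.97, 9.09, 8.96 and 8.95 on controls 1 to 5 and of 8.76, 8.78, 8.76 and 8.81 on mutants 1 to 4. The 4 mutants lay close together, between 8.76 and 8.81, and all below the lowest control, with a gap of 0.14. The log2 fold change was -0.23 (SE 0.08, 95% interval -0.39 to -0.06), with an exact permutation p of 0.00794 and a limma adjusted p of 0.389. The 3 Y-high controls and the 2 Y-low controls were alike above every mutant. In a fit that held the Y-linked signal as a covariate the log2 fold change was -0.21 (limma, unadjusted p = 0.0478, adjusted p = 0.799). Cdkn1c was among the least variable of all genes, with a pooled SD of 0.05 (percentile 0.478), so that a small difference separated the groups. Of 14 neural progenitor markers 5 were above and 9 below 0, with a median log2 fold change of -0.12. The part of tissue make-up in the Cdkn1c difference was not tested, and the covariate fits below used neuron and mesenchyme markers only.

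Nnat (neuronatin), a small membrane protein of developing neurons expressed from the paternal allele, had signals of 10.22, 10.29, 10.60, 10.21 and 10.36 on controls 1 to 5 and of 9.95, 10.31, 9.56 and 10.05 on mutants 1 to 4. Mutant 3 was the lowest and mutant 2 lay among the controls. The log2 fold change was -0.37 (SE 0.14), with an exact permutation p of 0.0397 and a limma adjusted p of 0.456. The unadjusted call was lost without mutant 3 (-0.23, limma, unadjusted p = 0.0806) and without control 3 (-0.30, limma, unadjusted p = 0.0597). With all arrays it was lost in the fit with the Y-linked covariate (-0.30, limma, unadjusted p = 0.103) and without moderation (limma, unadjusted p = 0.0523). A second feature of Nnat gave -0.33 (SE 0.18). Of the 15 neuron markers 3 were above and 12 below 0, with a median of -0.10, and 3 of them (20%) had a lower signal at an unadjusted p under 0.05, beside 4.93% of all genes. Of 13 markers of sensory ganglia and neural crest 12 were below 0, beside 10804 of all 22180 genes. At an unadjusted p under 0.05, 3 of them (23.1%) were lower, and Sncg passed after adjustment (limma, adjusted p = 0.0357). The mean of these markers was 7.17 to 7.42 on the controls and 6.90 to 7.24 on the mutants, and their part in the Nnat difference was not tested. With the neuron marker mean as a covariate, an alternative chosen after seeing the data, Nnat was at -0.28 (limma, unadjusted p = 0.0257).

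Kcnq1ot1, the paternally expressed long noncoding RNA that silences the maternally expressed genes of the Kcnq1 domain in cis, had signals of 8.21, 8.10, 8.13, 8.18 and 7.91 on controls 1 to 5 and of 8.83, 8.10, 8.46 and 8.38 on mutants 1 to 4. Mutant 1 was far above the other arrays, and mutant 2 lay among the controls. The log2 fold change was 0.34 (SE 0.13), with an exact permutation p of 0.0476 and a limma adjusted p of 0.464, and without mutant 1 it was 0.21 (unadjusted p = 0.0934). Without control 5 it was 0.29 (limma, unadjusted p = 0.0658) and without mutant 3 it was 0.33 (limma, unadjusted p = 0.0513). With all arrays the unadjusted call was lost in the fit with the Y-linked covariate (0.35, limma, unadjusted p = 0.0580) and without moderation (limma, unadjusted p = 0.0531).

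Windows of the promoters were read from RefSeq (GRCm38.p6) for the members with the smallest p, because imprinting acts through methylation of cytosines that stand before a guanine. Both starts of Zdbf2 and the start of Plagl1 are shown, 250 bases up to the start on the plus strand, with each CG in capitals. These are reference sequences, and their methylation was not measured. No promoter window was available for Cdkn1c, which is not shown.
Zdbf2, chr1:63200108-63200357: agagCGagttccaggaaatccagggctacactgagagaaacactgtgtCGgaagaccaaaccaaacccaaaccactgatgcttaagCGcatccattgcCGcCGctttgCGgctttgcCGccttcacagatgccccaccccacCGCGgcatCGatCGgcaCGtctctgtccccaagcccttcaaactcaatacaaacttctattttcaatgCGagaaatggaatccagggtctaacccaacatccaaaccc
Zdbf2, chr1:63273019-63273268: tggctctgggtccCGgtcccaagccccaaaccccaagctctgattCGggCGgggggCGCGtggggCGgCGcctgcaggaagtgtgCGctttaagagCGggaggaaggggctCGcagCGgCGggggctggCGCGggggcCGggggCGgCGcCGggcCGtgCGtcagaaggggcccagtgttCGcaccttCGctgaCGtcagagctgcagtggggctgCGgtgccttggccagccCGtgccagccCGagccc
Plagl1, chr10:13090582-13090831: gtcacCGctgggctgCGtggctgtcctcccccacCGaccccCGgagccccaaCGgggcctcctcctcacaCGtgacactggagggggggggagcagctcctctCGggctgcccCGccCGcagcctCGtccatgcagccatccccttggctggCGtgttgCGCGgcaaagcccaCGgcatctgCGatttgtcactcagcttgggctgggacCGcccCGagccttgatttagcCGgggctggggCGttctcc
The first Zdbf2 window holds 13 CG, the second 26 and the Plagl1 window 19. Over 300-base windows that reach 50 bases past the start, 33 of the 40 imprinted genes had 50 windows with a median of 13.5 CG, and 64% of them held at least 10, beside a median of 7 and a share of 43.5% among all 32851 windows. The motif ATCAATA, which on the other strand reads TATTGAT and which holds the core of the known binding sequence of Onecut factors, was in 1 of the 50 windows (2%), that of Slc22a18, and in 2.05% of all windows. It was in none of the windows of Zdbf2, Plagl1, Kcnq1ot1 or Nnat, and Cdkn1c had no window to search.

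The genes classed as maternally and as paternally expressed were then set side by side, although the allele used in these spinal cords was not measured. Of the 12 maternally expressed genes 5 had a log2 fold change above 0 and 7 below, with a median of -0.05. Of the 21 paternally expressed genes 11 were above 0 and 10 below, with a median of 0.01. At an unadjusted p under 0.05, 0 of the 12 maternally expressed genes were higher (0%) and 1 was lower (8.33%), and 3 of the 21 paternally expressed genes were higher (14.3%) and 1 was lower (4.76%), beside 4.81% and 4.93% of all genes. Counts this small do not set the classes apart, and the difference between them was not tested. The mean signal of the maternally expressed genes ranged from 6.73 to 7.003 over the controls and from 6.74 to 6.92 over the mutants, and that of the paternally expressed genes from 7.67 to 7.82 and from 7.72 to 7.81, so that the groups overlapped for both. The median over each class is a description, since the members of a domain share their control, and it was not tested.

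**Figure D2:**
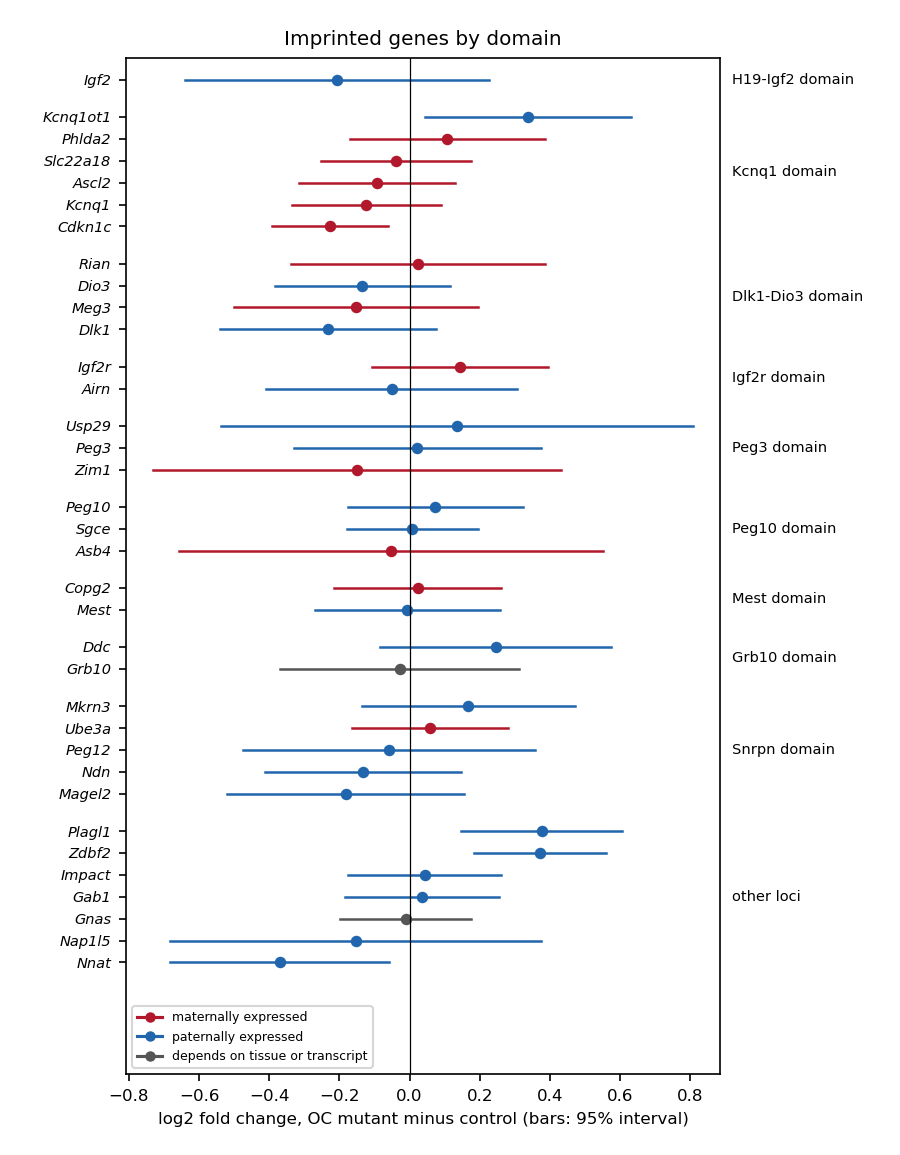
Log2 fold change of the 35 imprinted genes, OC mutant minus control (x axis), grouped by domain (rows), with bars for the 95% interval from limma. Maternally expressed genes are red, paternally expressed genes blue and the 2 others grey; the intervals of Zdbf2, Plagl1, Kcnq1ot1, Cdkn1c and Nnat leave out 0.

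In the Kcnq1 domain, where Kcnq1ot1 is transcribed from the paternal allele across the potassium channel gene Kcnq1, the 2 genes with an unadjusted call pointed in opposite directions, Kcnq1ot1 up and Cdkn1c down. The maternally expressed neighbours were at -0.12 (SE 0.10) for Kcnq1, -0.09 (SE 0.10) for the trophoblast transcription factor Ascl2, -0.04 (SE 0.10) for the transporter gene Slc22a18 and 0.11 (SE 0.13) for Phlda2, a restrainer of placental growth. All 4 were dim in control spinal cords, with means of 4.83, 3.98, 4.89 and 3.17, under the array medians. The median over the 6 genes was -0.07. After removal of the group means, Pearson's r of Cdkn1c and Kcnq1ot1 was 0.07 over 9 arrays (permutation p = 0.862, rho = 0.13, p = 0.743). Mutant 1, with the highest Kcnq1ot1, had the same Cdkn1c as mutant 3 to the second decimal. Cdkn1c varied so little within groups (pooled SD 0.05) that this comparison could hardly show a relation, and nothing is concluded from it.

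In the Dlk1-Dio3 domain 4 of 6 listed genes were measured. Dlk1, a paternally expressed membrane protein of the Notch ligand family, had signals of 7.60, 7.73, 7.57, 7.47 and 7.20 on controls 1 to 5 and of 7.22, 7.21, 7.03 and 7.66 on mutants 1 to 4. Control 5 and mutant 4 each lay among the other group, and the log2 fold change of -0.23 (SE 0.14, exact permutation p = 0.190, limma adjusted p = 0.627) did not pass. Without mutant 4 it was -0.36 (limma, unadjusted p = 0.0165) and without control 5 it was -0.31 (limma, unadjusted p = 0.0437). These were the only 2 of 21 alternatives with an unadjusted p under 0.05. The log2 fold change was -0.13 with the Y-linked covariate (limma, unadjusted p = 0.431) and -0.15 without mutant 3 (limma, unadjusted p = 0.331). The feature of Meg3, a maternally expressed long noncoding RNA, gave 5.75, 6.26, 5.70, 5.98 and 5.86 on controls 1 to 5 and 6.04, 5.69, 5.33 and 5.97 on mutants 1 to 4, a log2 fold change of -0.15 (SE 0.16) with groups that overlapped. Other features of Meg3 that the annotation shares with microRNA genes were not used. Rian, the maternally expressed host of small nucleolar RNAs, ranged from 9.49 to 10.12 on the controls and from 9.39 to 10.13 on the mutants (0.02, SE 0.17). Dio3, the paternally expressed enzyme that inactivates thyroid hormone, was dim (3.93 ± 0.13, SD, n = 5, in control) and differed by -0.14 (SE 0.11). The median of the 4 genes was -0.14.

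The maternal chromosome also carries a large cluster of short RNA genes between Dlk1 and Dio3, and 49 of 80 that the RefSeq table places there were measured. Of these, 35 were above 0 and 14 below, with a median log2 fold change of 0.16; 8 were higher (16.3%) and 1 was lower (2.04%) at an unadjusted p under 0.05, beside 4.81% and 4.93% of all genes, and 0 passed an adjusted p under 0.05. The 43 microRNA genes among them had 31 above 0 and 12 below, with a median of 0.18, 8 higher (18.6%) and 0 lower at an unadjusted p. The 435 microRNA genes measured elsewhere in the genome leaned the same way, with 294 above 0 and 141 below, a median of 0.08, 13.1% higher and 2.53% lower, so a lean toward higher signal was shared by microRNA features outside the domain. Of the 43 features, 22 had a control mean under 5. Whether these features read the mature microRNA, its precursor or the long transcript that holds it is not stated in any source used here.

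**Figure D3:**
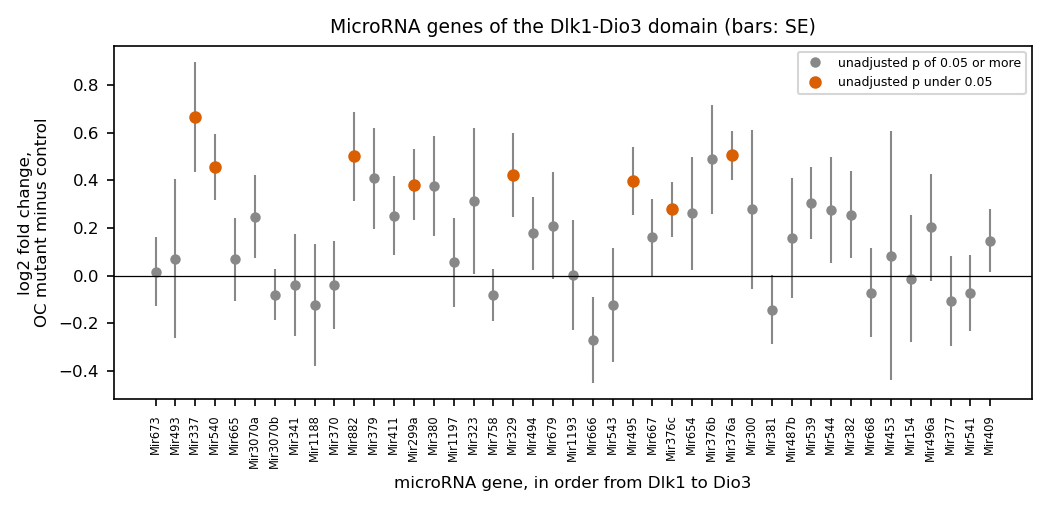
Log2 fold change, OC mutant minus control (y axis), of the 43 measured microRNA genes in their order between Dlk1 and Dio3 (x axis), with bars for the SE. Orange points, among them Mir337, Mir540 and Mir376a, have an unadjusted limma p under 0.05, and 31 of the 43 lie above 0.

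Within this cluster, Mir376a had signals of 2.38, 2.30, 2.68, 2.47 and 2.63 on controls 1 to 5 and of 3.13, 2.89, 3.0 and 2.97 on mutants 1 to 4, all mutants above all controls but near the bottom of the signal range (log2 fold change 0.51, SE 0.10, exact permutation p = 0.00794, limma adjusted p = 0.187). AF357355, a small nucleolar RNA gene of the cluster, went the other way, with 10.05, 10.12, 9.72, 10.06 and 9.96 on the controls and 9.60, 9.21, 9.46 and 9.09 on the mutants. All its mutant values were below all its control values, and the log2 fold change was -0.64 (SE 0.12, exact permutation p = 0.00794, limma adjusted p = 0.156). Mir540 differed by 0.46 (SE 0.14, adjusted p = 0.352 by limma) and Mir337 by 0.67 (SE 0.23, adjusted p = 0.400 by limma), and in both the groups overlapped. So 1 of the 49 short RNA genes of the cluster (2.04%) had fully separate groups in each direction, close to the 2.15% higher and 1.79% lower of all genes.

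Mature microRNA sequences were taken from RefSeq (GRCm38.p6, chromosome 12) and are given 5′ to 3′, with the seed, bases 2 to 8, in capitals. Mir376a, Mir540 and Mir337 are the microRNA genes of smallest p in the cluster. Mir376b, Mir376c, Mir379 and Mir411 are shown as examples of genes with a shared seed. The seed is the part that pairs with target mRNAs.
mmu-miR-376a-5p: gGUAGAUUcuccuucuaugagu
mmu-miR-376a-3p: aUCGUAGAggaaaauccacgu
mmu-miR-376b-5p: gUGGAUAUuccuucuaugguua
mmu-miR-376b-3p: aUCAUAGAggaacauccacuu
mmu-miR-376c-5p: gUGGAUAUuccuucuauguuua
mmu-miR-379-5p: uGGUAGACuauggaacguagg
mmu-miR-379-3p: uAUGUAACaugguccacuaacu
mmu-miR-411-3p: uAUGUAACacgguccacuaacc
mmu-miR-540-5p: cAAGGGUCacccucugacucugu
mmu-miR-540-3p: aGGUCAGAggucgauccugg
mmu-miR-337-5p: cGGCGUCAugcaggaguugauu
mmu-miR-337-3p: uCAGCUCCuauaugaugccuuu
The 5p arms of miR-376b and miR-376c share the seed UGGAUAU, and the 3p arms of miR-379 and miR-411 share AUGUAAC. The seed of miR-379-5p, GGUAGAC, is also that of miR-1193-5p. Among the measured genes 8 seeds were each shared by 2 arms, from 12 genes in all. Of these, Mir376c at 0.28 (limma, unadjusted p = 0.0329) was the 1 gene with an unadjusted p under 0.05. The partners Mir376b and Mir376c were at 0.49 and 0.28 and the partners Mir379 and Mir411 at 0.41 and 0.25, but Mir1193, the partner of Mir379 by its 5p arm, was at 0.00 (SE 0.23). The others were Mir3070a at 0.25 with Mir3070b at -0.08, Mir1197 at 0.06 with Mir758 at -0.08, Mir453 at 0.08 with Mir496a at 0.20, and Mir370, which shares a seed with Mir1193, at -0.04. Genes with a shared seed thus lay on both sides of 0. Both arms of miR-376a had seeds that no other arm of the 81 from the measured genes shared.

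Igf2, the paternally expressed insulin-like growth factor, was the 1 gene measured of the H19-Igf2 domain. It had signals of 9.66, 9.13, 9.04, 8.59 and 9.11 on controls 1 to 5 and of 8.59, 8.81, 8.86 and 9.33 on mutants 1 to 4. Control 1 was the highest array and mutant 4 came next, and the log2 fold change was -0.21 (SE 0.20, 95% interval -0.64 to 0.23, limma adjusted p = 0.777). Its receptor Igf2r, which is maternally expressed and carries Igf2 to the lysosome, was at 8.37, 8.16, 7.91, 8.06 and 7.96 on controls 1 to 5 and at 8.29, 8.01, 8.27 and 8.38 on mutants 1 to 4 (0.14, SE 0.11, limma adjusted p = 0.724), with overlapping groups. Airn, the paternally expressed noncoding RNA that overlaps Igf2r and silences it in cis, differed by -0.05 (SE 0.16).

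The Peg3 domain holds Peg3, a paternally expressed zinc finger gene, with Usp29 on the same allele and Zim1 on the maternal one. Peg3 was at 10.84, 10.20, 10.15, 9.99 and 10.10 on controls 1 to 5 and at 10.30, 10.05, 10.36 and 10.41 on mutants 1 to 4, with control 1 far above the rest and a log2 fold change of 0.02 (SE 0.16). Zim1 gave -0.15 (SE 0.27) and Usp29 0.13 (SE 0.31), the widest standard error of the imprinted genes. In the Peg10 domain, Peg10, a paternally expressed gene derived from a retrotransposon, was at 8.58, 8.28, 8.22, 8.24 and 8.20 on controls 1 to 5 and at 8.22, 8.23, 8.57 and 8.50 on mutants 1 to 4. Its log2 fold change was 0.07 (SE 0.11), with control 1 and mutants 3 and 4 high. Sgce (0.01, SE 0.09) and Asb4 (-0.05, SE 0.28) did not separate the groups either.

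Mest, a paternally expressed gene of mesoderm and of the embryonic nervous system, was at 11.77, 11.54, 11.46, 11.17 and 11.44 on controls 1 to 5 and at 11.39, 11.33, 11.54 and 11.62 on mutants 1 to 4. Its groups lay on top of each other (-0.01, SE 0.12), and its neighbour Copg2 differed by 0.02 (SE 0.11). Grb10, an adaptor that restrains insulin and growth factor signalling and is read from the maternal allele in most tissues and the paternal allele in neurons, was at 10.76, 10.53, 10.26, 10.39 and 10.17 on controls 1 to 5 and at 10.27, 10.03, 10.63 and 10.65 on mutants 1 to 4 (-0.03, SE 0.16). Ddc, the enzyme next to it that makes dopamine and serotonin, differed by 0.25 (SE 0.15, limma adjusted p = 0.630), and mutant 3 had its highest value. For both genes the groups overlapped.

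In the Snrpn domain, known from the Prader-Willi and Angelman syndromes, 5 of 6 listed genes were measured. Ndn (necdin), a paternally expressed protein of postmitotic neurons, was at 8.68, 9.01, 9.05, 8.86 and 9.16 on controls 1 to 5 and at 8.58, 9.10, 8.73 and 8.87 on mutants 1 to 4 (-0.13, SE 0.13). Its relative Magel2 gave -0.18 (SE 0.15), Peg12 -0.06 (SE 0.19) and Mkrn3 0.17 (SE 0.14). Ube3a, a ubiquitin ligase read from the maternal allele in neurons, differed by 0.06 (SE 0.10) on its brightest feature, and a second feature that ranged from 4.57 to 7.95 over the arrays gave -0.46 (SE 0.66). No gene of the domain had separate groups, and the median of -0.06 was 0.06 without control 4. Of the other genes outside these domains, Gnas, the stimulatory G protein locus, was at 6.64, 6.73, 6.68, 6.49 and 6.59 on controls 1 to 5 and at 6.67, 6.71, 6.52 and 6.56 on mutants 1 to 4 (-0.01, SE 0.09). Nap1l5 gave -0.15 (SE 0.24), Gab1 0.03 (SE 0.10) and Impact 0.04 (SE 0.10).

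The signal of imprinted genes also varied between spinal cords of the same group. The median pooled within-group SD was 0.20 for the 35 genes and 0.18 for all genes. Usp29 (SD 0.57, percentile 98.9), Asb4 (0.51), Zim1 (0.49) and Nap1l5 (0.44) were the most variable, and Cdkn1c, Sgce, Gnas and Zdbf2 the least. Control 1 was the highest control for 16 of the 35 genes (45.7%), beside 25.4% of all genes, and above the mean of the other 4 controls for 24 (68.6%), beside 50.0% of all genes. Among the mutants, mutant 4 was the highest for 15 of the 35 genes (42.9%), beside 21.3% of all genes. It also had the highest mesenchyme marker mean of the mutants (7.67). Genes highest on control 1 included Asb4 by 1.25 over that mean, Zim1 by 1.19, Peg3 by 0.73 and Igf2 by 0.69, whereas Usp29 and Nap1l5 were the furthest below it.

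**Figure D4:**
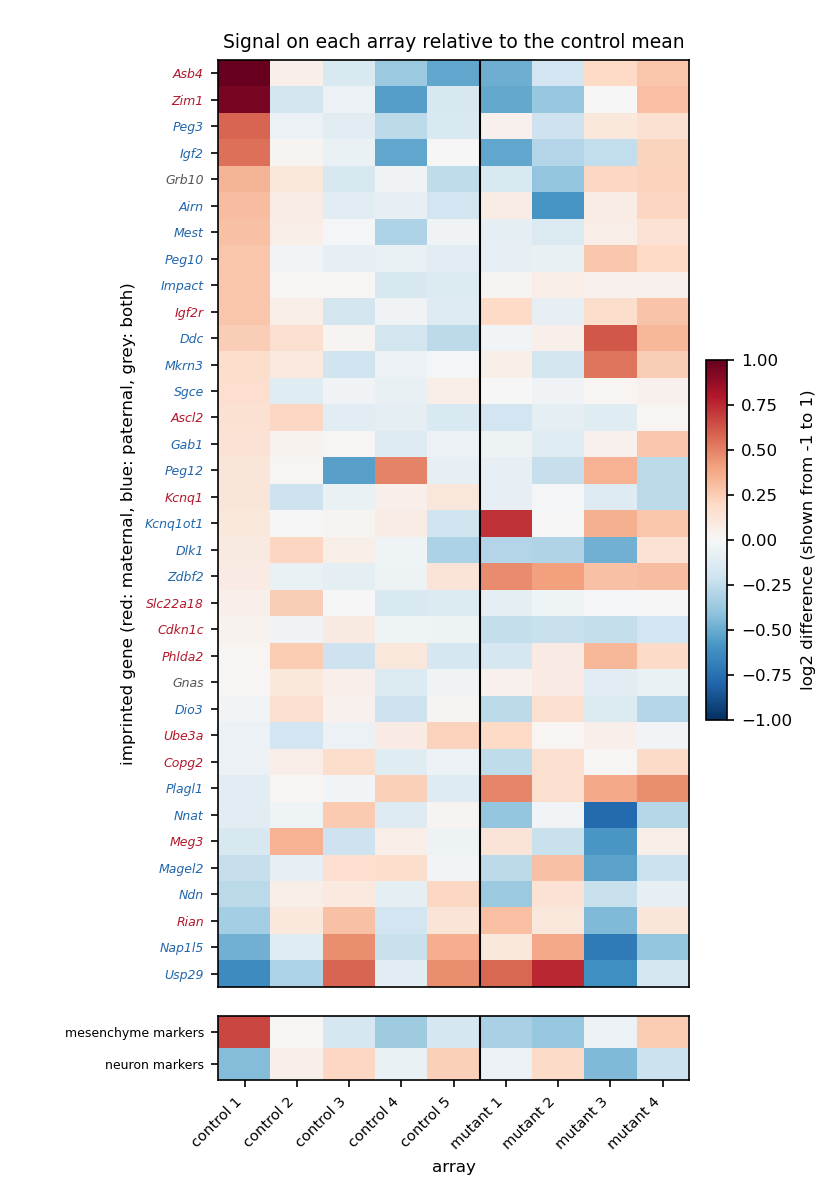
Log2 signal of each imprinted gene (rows) on each array (columns) minus the control mean, with colour from -1 (blue) to 1 (red), and the same for the mean of the mesenchyme and of the neuron markers in the lower panel. Rows are ordered by control 1 minus the other controls; Asb4, Zim1, Peg3 and Igf2 at the top were high on control 1 with the mesenchyme markers, and Usp29 and Nap1l5 at the bottom were low on control 1 and mutant 3 with the neuron markers.

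Control 1 was also the array with the highest mesenchyme marker mean and had next to the lowest neuron marker mean, after mutant 3. Of the 35 genes 26 (74.3%) deviated in the same direction on control 1 and mutant 3 from the rest of their group, as did 61.2% of all genes. Usp29 was at 6.97 on control 1 and 6.98 on mutant 3, against 7.29 to 8.35 on the other arrays, and Nap1l5 was at 6.41 and 6.19, against 6.50 to 7.36. These genes were low on the arrays where the neuron markers were low. With the neuron marker mean as a covariate, chosen after seeing the data, the log2 fold change of Usp29 was 0.39 (limma, unadjusted p = 0.0209, adjusted p = 0.275), against 0.13 without it. With the mesenchyme marker mean as a covariate, Ddc was at 0.31 (limma, unadjusted p = 0.0319, adjusted p = 0.420). Zdbf2 was at 0.38 and 0.37 and Cdkn1c at -0.23 and -0.22 with these covariates, close to their values without them. However, the neuron marker mean was 9.96 over the controls and 9.83 over the mutants, and the mesenchyme marker mean 7.422 and 7.295. With covariates this close between the groups, these fits say little about tissue make-up. The other marker lists, such as that of sensory ganglia and neural crest, were not used as covariates. What differed between these spinal cords was not tested otherwise.

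Neighbours within domains were compared over the 9 arrays after removal of the group means, for 8 pairs. The permutation p-values took all orders of the 9 arrays. Deviations from a group mean are tied to each other and not freely exchangeable, so these p-values are approximate and may be too small. Igf2r and Airn had a Pearson's r of 0.914 (permutation p = 4.66e-04, adjusted over the pairs 0.00308) and a Spearman's rho of 0.917 (p = 0.00131, adjusted 0.0105). Their r was 0.917 without the 2 arrays farthest from the median of Igf2r. The 2 genes overlap in the annotation, and no source used here says which strand the features read. Peg10 and Asb4, which are expressed from opposite alleles, had r = 0.911 (permutation p = 7.69e-04, adjusted 0.00308) and rho = 0.833 (p = 0.00827, adjusted 0.0331). Their r was 0.813 without the 2 farthest arrays. Peg3 and Zim1, also on opposite alleles, had r = 0.909 (permutation p = 0.00157, adjusted 0.00419) and rho = 0.783 (p = 0.0172, adjusted 0.0459). However, r was 0.637 without control 1 and control 4 and 0.686 without control 1 alone, so that this relation leaned on control 1. The other 5 pairs did not pass, with r = 0.642 for Ndn and Magel2 (adjusted permutation p = 0.119), 0.558 for Meg3 and Rian, 0.548 for Meg3 and Dlk1, 0.256 for Mest and Copg2 and 0.07 for Cdkn1c and Kcnq1ot1. The arrays share differences in tissue make-up as given above, and their part in these correlations was not tested.

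**Figure D5:**
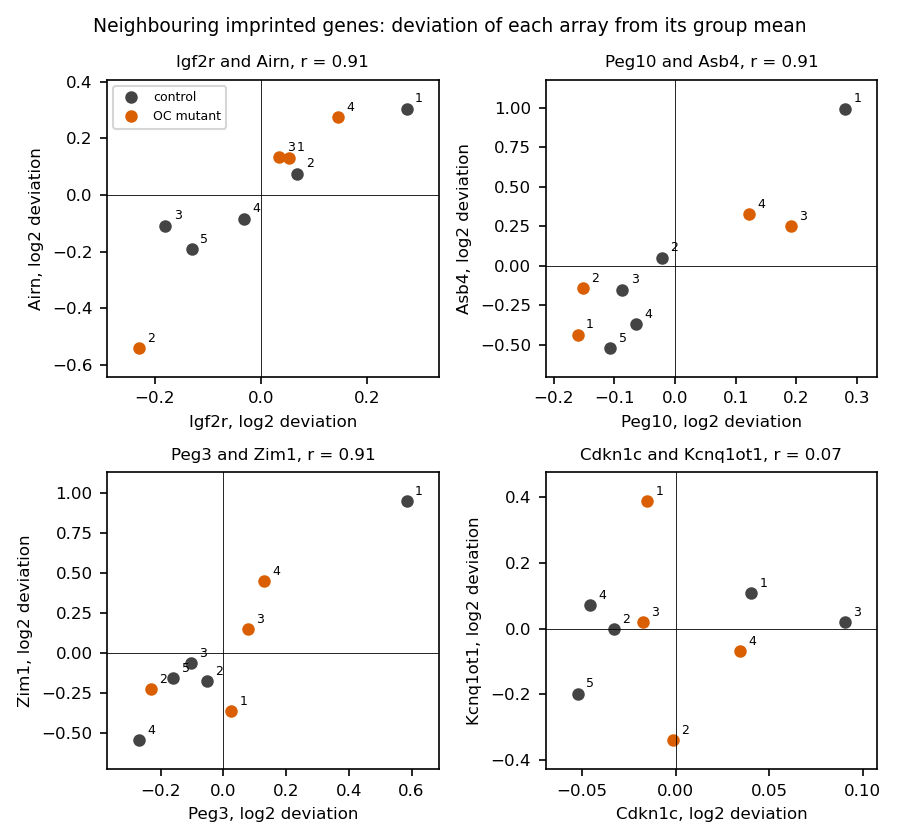
Deviation of each array from its group mean in log2 signal for 4 pairs of neighbouring imprinted genes, 1 gene on each axis, with control arrays in grey and OC mutant arrays in orange, numbered by replicate. Igf2r and Airn, Peg10 and Asb4, and Peg3 and Zim1 lie along a line, with control 1 at the upper right, while Cdkn1c and Kcnq1ot1 (r = 0.07) do not.

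Genes that set or keep imprints were taken from a list of 25 regulators, all measured, which holds DNA methyltransferases, zinc finger proteins that bind imprinted control regions and their partners. Of these 21 were above 0 and 4 below, with a median log2 fold change of 0.12, beside 0.00 for all genes; 4 were higher (16%) and 0 lower at an unadjusted p under 0.05, beside 4.81% and 4.93% of all genes, and 0 passed an adjusted p under 0.05. The mean of the list lay between 8.0 and 8.06 on the controls and between 8.09 and 8.22 on the mutants, so that the arrays of the groups did not overlap. This was not particular to the regulators. The mean of the 435 microRNA genes outside the Dlk1-Dio3 cluster also separated the groups, at 4.49 to 4.53 and 4.58 to 4.68. The mean of all genes overlapped, at 5.84 to 5.86 and 5.84 to 5.87. Ehmt1, a histone H3 lysine methyltransferase, was at 8.94, 9.0, 9.07, 8.91 and 9.01 on controls 1 to 5 and at 9.40, 9.14, 9.23 and 9.25 on mutants 1 to 4. All mutants were above all controls (0.27, SE 0.08, exact permutation p = 0.00794, limma adjusted p = 0.356). Zfp445, a zinc finger protein that maintains imprints, differed by 0.25 (SE 0.10, adjusted p = 0.484 by limma), Smchd1, a chromatin protein that silences some imprinted genes, by 0.24 (SE 0.10) and Tet1, which oxidises methylated cytosine, by 0.23 (SE 0.11). The maintenance methyltransferase Dnmt1 differed by 0.17 (SE 0.11), and the imprint-binding Zfp57 (-0.10, SE 0.14) and its partner Trim28 (-0.03, SE 0.09) were below 0. The list was chosen with earlier results of these data known, and its shift was not tested as a set.

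A further list of 42 imprinted genes outside the 40 had 35 measured, with 22 above 0 and 13 below and a median of 0.05; 2 were higher (5.71%) and 0 lower at an unadjusted p under 0.05, beside 4.81% and 4.93% of all genes, and 0 passed an adjusted p under 0.05. Inpp5f, an inositol phosphatase with a paternally expressed brain transcript, was at 6.41, 6.31, 6.28, 6.44 and 6.43 on controls 1 to 5 and at 6.78, 6.72, 6.49 and 6.69 on mutants 1 to 4. All its mutant arrays were above all its control arrays (0.30, SE 0.09, exact permutation p = 0.00794, limma adjusted p = 0.352). Its signal on the Y-low controls 2 and 3 was the lowest of all 9 arrays. The Polycomb gene Sfmbt2 differed by 0.33 (SE 0.14), the insulin gene Ins2 by 0.31 (SE 0.14, unadjusted p = 0.0529 by limma) and Snhg14, the long host RNA of the Snrpn domain, by 0.41 (SE 0.19, unadjusted p = 0.0579 by limma), all with overlapping groups.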

How the data were processed

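Values of 9 arrays (5 control, 4 OC mutant) came from 1 table of 41345 features. The authors labelled total RNA with a whole-transcript kit, scanned the arrays and deposited log2 signals; the background correction, summarisation and normalization are not given in the sources used here. The series description counts 1 mutant embryo more, which was not analysed here. The platform annotation gave 23521 features 1 symbol, 1820 several and did not list 16004; symbols were updated through a RefSeq table (GRCm38.p6), in which 23328 features matched. Of the genes, 1082 had several features, and the brightest was used.

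All 22180 genes were fitted by limma 3.58.1 (lmFit, then eBayes) under R 4.3.3 for the difference of OC mutant from control, without covariates, with p-values adjusted over all genes by Benjamini and Hochberg and a threshold of 0.05. The prior degrees of freedom were 4.47, and the fit was tested on simulated data. Single genes had exact two-sided permutation tests over all array assignments. Groups and replicate numbers came from the sample labels, and arrays were taken as separate embryos, which only the series description states; the number of arrays limits the precision. Allele classes and domains came from general knowledge. The imprinted genes, lists and tests were chosen with earlier results of these data known. Values on every array are given for imprinted genes with an unadjusted p under 0.05 or separate groups and for the leading genes of each domain, and up to 4 genes of smallest p from each further list; Dnmt1, Zfp57, Trim28 and the microRNA genes with shared seeds were added after their values were seen. Alternatives were single features, the mean of features, genes without the dimmest, quantile normalization, arrays centred at their medians, trend and robust moderation, no moderation, array weights, a replicate block, a Y-linked covariate and each array left out; the neuron and mesenchyme covariates were added after seeing the data.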

Additional observations from a re-analysis of the deposited data

Results flagged for a closer look

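Among the 35 imprinted genes, 70 groups of arrays (each gene in control and in OC mutant) were checked for a single array far from the rest, and 2 groups had one. Chance gives such an array in about 1 in 20 groups. Peg3 was at 10.84 on control 1, against 9.99 to 10.20 on the other 4 controls. Peg10 was at 8.58 on control 1, against 8.20 to 8.28 on the other 4 controls. Both values came from the control with the highest mesenchyme marker mean, whose part in them was not tested.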

How the results depend on the processing

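The number of imprinted genes past an adjusted p under 0.05 was 0 in both directions in all 21 alternatives. At an unadjusted p under 0.05, 2 to 4 of the 35 were higher, beside 540 to 1520 of all 22180 genes. The number lower at an unadjusted p was 2. It was 1 without moderation, 1 with the Y-linked covariate, and 1 to 4 when single arrays were left out. It was 4 without mutant 2, where 1148 of all 22180 genes were lower. Same-numbered arrays deviated from their group means with correlations of -0.38, -0.13, -0.39 and -0.16, which gave no sign of pairing by number. Tissue differences between single arrays also enter these correlations, and the labels do not say whether the numbers pair samples. With the replicate block 0 imprinted genes were lower, 540 genes higher and 610 lower at an unadjusted p. Imprinted genes with separate groups numbered 1 to 3 higher (2 without control 1 or without control 4, 3 without mutant 2) and 1 to 2 lower (2 without mutant 2). Groups of fewer arrays separate more easily for any gene. The share of all genes was not counted in these alternatives, so nothing is concluded from these counts. The Snrpn domain median was -0.13 with the mean of features and -0.11 to 0.0646 with single arrays left out. The medians of maternally and of paternally expressed genes ranged from -0.09 to 0.00 and from -0.03 to 0.05, and genes above 0 numbered 13 to 19 of 35. Zdbf2 kept an unadjusted p under 0.05 in 21 of 21 alternatives (0.31 to 0.41), Plagl1 in 20 (0.34 to 0.45), Cdkn1c in 20 (-0.25 to -0.20, lost with the replicate block at a limma unadjusted p of 0.0603, as were Nnat at an unadjusted p of 0.0846 and Kcnq1ot1 at an unadjusted p of 0.0659), Nnat in 16 (-0.48 to -0.23) and Kcnq1ot1 in 15 (0.21 to 0.45). Over all genes the number lower at an adjusted p ranged from 1 to 82 (41 without mutant 3) and higher from 0 to 14. Quantile normalization gave 767 genes higher and 1428 lower at an unadjusted p, and median centring 758 and 1302, against 1067 and 1094; the cause was not tested. Dio3 and Magel2 passed an unadjusted p only without mutant 2 (-0.23 and -0.34). The number of arrays limits what could be detected, as the intervals in the text show.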
